A study of Mus musculus with 45 samples.

Results

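The comparison described here set mouse macrophages given interferon gamma (IFN-γ) together with interleukin-4 (IL-4) for 2 h against macrophages given IFN-γ alone for 2 h. It rests on 6 of the 45 samples of the series, 3 libraries of each group, joined by the replicate number in their labels. All 11380 genes of 24421 that reached 1 CPM (reads of a gene scaled to a common library total) in at least 3 of the 21 libraries of the table were examined. The cells were macrophages grown from C57BL/6 bone marrow in medium conditioned by L929 cells and used at day 7, with no engineered allele named in the labels. IL-4 was given at 10 ng/ml and IFN-γ at 100 ng/ml. Untreated cells, cells given IL-4 alone for 2 h, and cells given IFN-γ with or without IL-4 for 4 h, each with 3 libraries, served as references, and 3 libraries of IL-4 alone at 4 h entered the fit only. The labels do not give the age or sex of the mice, whether cells of several mice were pooled, or whether replicates came from separate animals, so p-values measure only the spread between these libraries, which may be technical.

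IFN-γ acts through JAK kinases and STAT transcription factors, and drives the classical, antimicrobial state of macrophages: chemokines, guanylate-binding proteins, antigen presentation and nitric oxide synthase. IL-4 acts through JAK kinases and STAT6, and drives the alternative state, with lectins, arginase, chemokines that attract eosinophils and growth-related factors. Both receptors share JAK kinases, and both induce proteins of the SOCS family, which inhibit JAK signalling. Macrophages that meet both cytokines receive opposed signals at once, and the comparison asks what IL-4 adds when IFN-γ is present.

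The 6 libraries held 40633940 to 48237156 reads, and their median-ratio scaling factors ran from 0.985 to 1.11. Libraries with the same replicate number deviated together from their group means (correlation across genes of 0.780 to 0.951 in the 3 pairs of the comparison, 0.369 or less between numbers), and the replicate number was a block in the fit. All 20 listed macrophage genes passed the level filter, with summed levels of 24060 to 45130 CPM under IFN-γ and 25760 to 39190 CPM with IL-4 added. Of 68 measured genes listed for other cell types, 27 passed the filter. In such bulk RNA, fewer cells of a type and less RNA per cell cannot be told apart. The erythroid list summed to 0.448 to 1.38 CPM over both groups, with 5 of its 8 genes at 0 reads in all 6 libraries, and the natural killer list to 2.09 to 8.68 CPM. The neutrophil list summed to 144.6 to 308.4 CPM under IFN-γ and 98.4 to 260.4 CPM with IL-4 added. For the T-cell list the sums were 107.4 to 158.4 and 121.8 to 168.8 CPM, and for the dendritic list 162.7 to 206.4 and 136.6 to 202.5 CPM. Bst2, also listed as a type I interferon gene, held 180.3 ± 24.5 CPM of the dendritic list under IFN-γ. Xcr1, a dendritic cell receptor, was the only one of those 27 genes that was called (-0.49 ± 0.10, adjusted p = 0.00299).

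With IL-4 added, 668 genes rose and 512 fell (5.87% and 4.5% of those tested, 10.4% together). The median size of the log2 difference was 0.63 among the genes that rose, or 1.55-fold, and 0.49 among those that fell, or 1.40-fold. A log2 difference of 1 or more was reached by 163 genes that rose and by 59 that fell. All of the called genes moved the same way in the 3 pairs, as did 44.6% of all tested genes, and the libraries of both groups did not overlap for 490 of the 668 and 287 of the 512 (11.3% over all tested genes). Here a difference is that of log2(rescaled CPM + 1) with its standard error, which understates the change of genes near or under 1 CPM. A level is the rescaled CPM, given for replicates 1, 2 and 3 in that order or as mean ± SD of 3 libraries. "Rose" and "fell" are used for an adjusted p under 0.05 (limma, Benjamini-Hochberg over all genes). The counts were 253 and 89 without the block.

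The largest difference was that of Pdcd1lg2, the gene of PD-L2, a ligand of the inhibitory T-cell receptor PD-1 (chromosome 19, 29410919 to 29471161, GRCm38). Its levels were 1.17, 0.579 and 0.769 CPM under IFN-γ and 55.9, 34.5 and 50.1 CPM with IL-4 added. All 3 libraries with both cytokines were far above the others, with a ratio of the means of 55.8 and a log2 difference of 4.68 ± 0.21 (adjusted p = 1.97e-10). Cells given IL-4 alone held 25.2 ± 5.03 CPM. Ccl24, an eosinophil-attracting chemokine (chromosome 5, 135569937 to 135573049), stood at 3.71, 0.952 and 3.25 CPM under IFN-γ and at 107, 52.5 and 91 CPM with IL-4 added. It rose by 4.58 ± 0.19 (adjusted p = 1.5e-10), to a mean above the 24.9 ± 10.1 CPM seen with IL-4 alone. Cdh1, which encodes the adhesion molecule E-cadherin, had 9 reads in the 3 IFN-γ libraries together and 960 with IL-4 added (0.0684 ± 0.0271 and 6.96 ± 0.569 CPM; difference 2.90 ± 0.15, adjusted p = 6.56e-10).

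The sequence before the start site of Pdcd1lg2 is shown with those of 3 other IL-4-response genes and 1 IFN-γ-response gene, because they hold the palindromes that STAT factors bind and because these genes responded so differently. STAT6 favours TTC followed by GAA after any 4 bases (searched on both strands, which are alike for a palindrome), and a spacing of 3 bases is that of the GAS-type element of the IFN-γ response. The windows are the 250 bases before a RefSeq transcript start (GRCm38.p6), 5′ to 3′ on the strand of the gene, with matches in capitals. Those of Pdcd1lg2 (chr19:29410669-29410918, plus strand), Tmem26 (chr10:68723496-68723745, plus strand), Clec7a (chr6:129472780-129473029, minus strand, 1 of 2 annotated starts) and Retnla (chr16:48842359-48842608, plus strand) show the 4-base spacing. That of Irf1 (chr11:53769764-53770013, plus strand, 1 of 2 starts) shows the 3-base spacing.
Pdcd1lg2: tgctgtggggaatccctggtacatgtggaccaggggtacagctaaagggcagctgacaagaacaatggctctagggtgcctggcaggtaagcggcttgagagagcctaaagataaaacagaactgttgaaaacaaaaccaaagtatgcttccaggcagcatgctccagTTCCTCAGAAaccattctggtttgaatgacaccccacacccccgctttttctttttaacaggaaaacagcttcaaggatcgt
Tmem26: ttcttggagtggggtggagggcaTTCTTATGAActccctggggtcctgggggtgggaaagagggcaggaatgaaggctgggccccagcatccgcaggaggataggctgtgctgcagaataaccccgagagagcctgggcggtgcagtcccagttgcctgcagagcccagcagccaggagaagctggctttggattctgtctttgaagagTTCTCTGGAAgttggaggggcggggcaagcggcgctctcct
Clec7a: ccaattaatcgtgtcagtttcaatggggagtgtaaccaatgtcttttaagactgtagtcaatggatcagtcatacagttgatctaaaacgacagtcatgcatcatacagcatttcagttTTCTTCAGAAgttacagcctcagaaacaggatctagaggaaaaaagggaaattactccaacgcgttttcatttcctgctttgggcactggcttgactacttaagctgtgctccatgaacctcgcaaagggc
Retnla: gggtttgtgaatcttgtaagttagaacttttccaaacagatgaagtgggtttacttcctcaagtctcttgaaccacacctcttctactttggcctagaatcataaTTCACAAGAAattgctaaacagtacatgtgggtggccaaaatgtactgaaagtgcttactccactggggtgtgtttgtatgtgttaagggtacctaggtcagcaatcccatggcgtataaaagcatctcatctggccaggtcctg
Irf1: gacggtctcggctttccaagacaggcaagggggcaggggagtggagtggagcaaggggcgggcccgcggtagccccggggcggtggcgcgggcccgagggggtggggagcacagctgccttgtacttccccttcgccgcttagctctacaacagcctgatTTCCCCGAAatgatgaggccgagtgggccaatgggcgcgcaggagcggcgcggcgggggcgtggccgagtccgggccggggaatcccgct

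The match of Pdcd1lg2 begins 82 bases before the start, that of Clec7a 131, that of Retnla 145, those of Tmem26 227 and 41, and that of Irf1 90. Windows were at hand for 8783 of the tested genes, and 5.76% of these held the 4-base and 7.32% the 3-base spacing (6.76% and 8.13% of all 27025 genes with a window). Among genes that rose, 516 had a window, of which 10.7% held the 4-base spacing and 7.56% the 3-base spacing. Among genes that fell, 384 had a window, with 3.91% and 10.2%. The NF-κB-type motif, GGGA and TTTCC with 1 base between them, was in 0.775% and 0.521% of these windows, and the interferon-response motif, GAAA repeated after 2 bases, in 2.13% and 5.47%, against 0.49% and 3.5% of tested genes. Both of these were searched on both strands. The windows shown were picked from genes with a match, and the spacing does not sort the named genes by their response. Batf3, Rasgrp1 and Rara, which rose, hold the 3-base spacing before a start, and Nlrp3, which fell, holds the 4-base spacing. These are matches of letters within 250 bases and no measurement of binding.

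Of the 26 tested genes listed for alternative activation, 12 rose and 2 fell, with a median log2 difference of 0.50 against -0.02 over all tested genes. Clec7a, the β-glucan receptor dectin-1, went from 299, 132 and 252 CPM to 1255, 1008 and 866 CPM, a rise of 2.26 ± 0.21 (adjusted p = 8.97e-07). All its libraries with both cytokines lay above the mean level with IL-4 alone (453 ± 142 CPM). Mrc1, the mannose receptor, roughly doubled, from 1465, 1438 and 1503 to 3204, 2262 and 3163 CPM (0.95 ± 0.12, adjusted p = 4.14e-05). Tmem26, a membrane protein of the alternative state, rose to 3.76 ± 0.426 CPM (2.02 ± 0.13), and cells given IL-4 alone reached 18.2 ± 6.16 CPM. Slc7a2, a carrier of arginine (2.1 ± 0.14), and Rasgrp1, a Ras exchange factor (2.08 ± 0.29), rose with it, as did Flt1, a VEGF receptor (2.04 ± 0.18), and Fn1, fibronectin (1.76 ± 0.20). The 2 members that fell were Il1rn, the IL-1 receptor antagonist (-1.02 ± 0.18, adjusted p = 0.000887, 0.973 without the block), and Plaur, the urokinase receptor (-1.04 ± 0.24, adjusted p = 0.00769, 0.194 without the block).

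The textbook markers Arg1 and Retnla were not called at 2 h. Arg1, the arginase that competes with nitric oxide synthase for arginine, had 1, 2 and 1 reads under IFN-γ and 47, 103 and 41 with IL-4 added. Its groups did not overlap, yet the difference of 1.17 ± 0.40 missed the threshold (adjusted p = 0.0798; 1.8e-10 to 0.72 over 20 alternatives, called in 6 of them), at levels of 1.36 ± 0.629 CPM against 9.75 ± 6.45 CPM with IL-4 alone. Retnla, the gene of the secreted RELMα, had 0 reads in the 3 IFN-γ libraries, for which 3 reads over the group give a floor of 0.0228 CPM. With both cytokines it had 6, 0 and 1 reads, and with IL-4 alone 70, 67 and 62. Chil3, a chitinase-like protein, differed by 0.25 ± 0.16 and was not called either (adjusted p = 0.449).

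**Figure D1:**
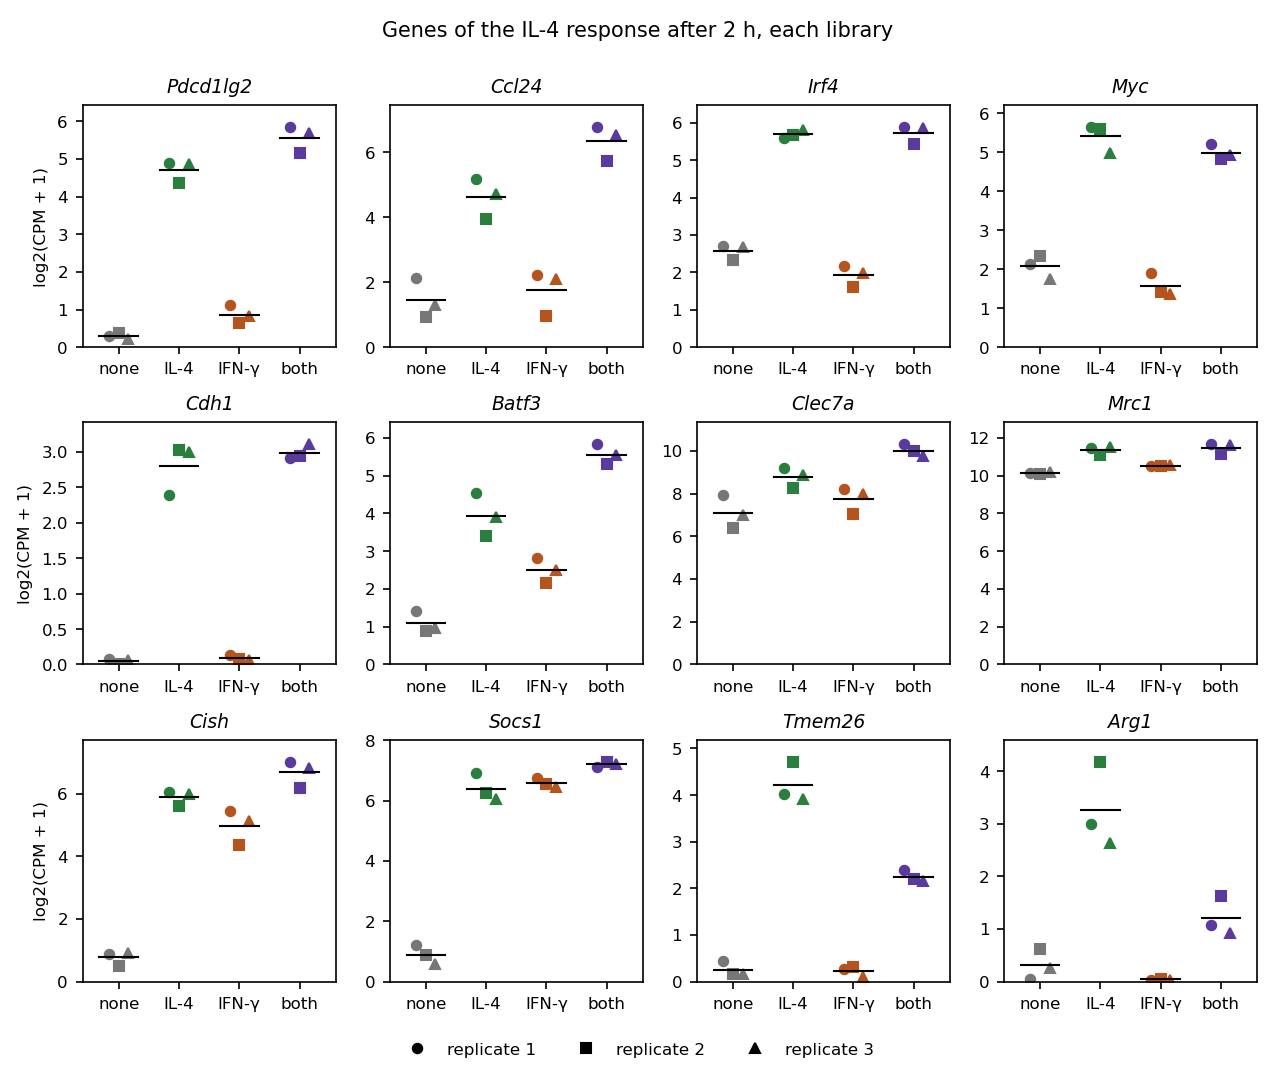
Levels of 12 genes of the IL-4 response in untreated cells and after 2 h with IL-4, IFN-γ or both, on the log2(CPM + 1) scale; each symbol is 1 library, its shape the replicate, and the bar the mean of 3. Pdcd1lg2, Ccl24, Irf4, Myc, Cdh1 and Batf3 are low under IFN-γ and high with both cytokines in all 3 libraries, and Tmem26 and Arg1 with both cytokines stay under the level of IL-4 alone.

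Transcription factors were among the strongest responders. Irf4, an interferon regulatory factor of the alternative state (chromosome 13, 30749226 to 30766976), rose from 3.51, 2.05 and 2.95 CPM to 57.5, 41.9 and 56.4 CPM (3.79 ± 0.17, adjusted p = 1.97e-10), and IL-4 alone gave 50.5 ± 3.94 CPM. Myc, the growth-promoting factor (chromosome 15, 61985391 to 61990374), rose from 2.74, 1.66 and 1.59 to 36.2, 27.5 and 29.6 CPM (3.43 ± 0.13, adjusted p = 3.61e-11). No library with both cytokines came near one with IFN-γ alone. Batf3, an AP-1 factor that pairs with IRF proteins (3.05 ± 0.16), and Ahr, the aryl hydrocarbon receptor (1.97 ± 0.13), also rose. Pparg, a nuclear receptor for fatty acids of the alternative state, went from 25.6, 25.1 and 20.5 to 65.8, 53 and 48.3 CPM (1.19 ± 0.08, adjusted p = 9.84e-09).

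Of the 25 listed transcription factors of the IL-4 response, 10 rose and 5 fell, with a median difference of 0.24. Gata3, near 0 under IFN-γ (0.0332 ± 0.0574 CPM), reached 3.96 ± 1.41 CPM (2.23 ± 0.12). Nfil3, a bZIP repressor, rose by 1.37 ± 0.21. Egr2, an early growth response factor, rose by 2.27 ± 0.46 (adjusted p = 0.00291), though its groups overlapped, with 43.9, 5.42 and 18.6 CPM under IFN-γ and 162, 39.9 and 94 CPM with IL-4 added. Its call was lost without the replicate block (0.26) and with replicate 3 removed from every group (0.1), of 4.8e-08 to 0.26 over 20 alternatives. The 5 that fell were Klf2 (-1.16 ± 0.20), Bhlhe41 (-0.97 ± 0.13), Bcl6, a repressor (-0.94 ± 0.16), Cebpb (-0.82 ± 0.25, called in 9 of 20 alternatives) and Ppard (-0.40 ± 0.08); of these only Bcl6 was called without the block. Klf4, a zinc-finger factor that IL-4 alone raised to 54.4 ± 12.6 CPM, stood at 12.9, 7.88 and 9.03 CPM under IFN-γ and 14.5, 13.7 and 14.9 CPM with both (0.51 ± 0.22, adjusted p = 0.196).

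Myc did not rise alone. Of 34 tested genes for MYC, its partners and ribosome biogenesis, 11 rose and 2 fell. These are 32.4% and 5.88%, against 5.87% and 4.5% of all tested genes. In this list 29 differences were above 0, and the median was 0.18 against -0.02 over all tested genes. Rrs1, a ribosome assembly factor, went from 23.2, 20.1 and 16.4 to 48.9, 44 and 37.8 CPM (1.10 ± 0.10, adjusted p = 8.21e-07). Ppan, a nucleolar assembly factor (0.79 ± 0.12), Gnl3, the nucleolar protein nucleostemin (0.63 ± 0.12), and Srm, spermidine synthase (0.61 ± 0.14), rose as well. The 2 members that fell were Mxd1 (-1.27 ± 0.17, adjusted p = 4.84e-05) and Mnt (-0.96 ± 0.17, adjusted p = 0.000825, 0.119 without the block), both of which encode proteins that oppose MYC at its sites. The abundant nucleolar genes Npm1 (0.04 ± 0.08) and Ncl (0.18 ± 0.07) were not called. Only 3 members rose without the block, and 4 in the CPM as deposited.

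Of the 16 listed receptor chains, kinases and STAT factors, 2 rose and 1 fell. Il4ra, the receptor chain that binds IL-4, was at 1886, 1146 and 2036 CPM under IFN-γ and 2065, 1342 and 2130 CPM with IL-4 added (0.14 ± 0.18, adjusted p = 0.807), and both groups overlapped. Stat6 (-0.08 ± 0.07) was not called either. The member that fell was Il13ra1, the chain of the receptor that IL-4 shares with IL-13, which went from 66.1, 65.1 and 70.6 to 37, 29.4 and 28 CPM (-1.08 ± 0.12, adjusted p = 8.1e-06), with no overlap. Jak2, a kinase of the IFN-γ receptor (0.46 ± 0.09, adjusted p = 0.00212), and Ifngr2, the second chain of that receptor (0.52 ± 0.07, adjusted p = 0.000109), rose. Both of these calls were lost without the block (0.24 and 0.648; 8.6e-05 to 0.24 and 3.4e-09 to 0.65 over 20 alternatives).

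Of the 15 feedback inhibitors of JAK signalling, 5 rose and 0 fell. Cish went from 42.4, 19.5 and 34 to 129, 71.8 and 112 CPM (1.70 ± 0.20, adjusted p = 1.52e-05), and Socs2 from 2.24, 1.38 and 1.39 to 10.3, 6.12 and 8.02 CPM (1.77 ± 0.13, adjusted p = 7.7e-08). Socs1, already at 107, 92.4 and 86.8 CPM under IFN-γ, moved to 138, 156 and 147 CPM (0.63 ± 0.19, adjusted p = 0.0436). Its 2 groups did not overlap, but the call stood in only 8 of 20 alternatives (0.00016 to 0.43) and was lost when any of 5 single libraries was left out. Socs5 (0.46 ± 0.10) and Ptpn2, a phosphatase of JAK and STAT proteins (0.36 ± 0.10, adjusted p = 0.0245, 0.706 without the block), completed the 5. Socs3, high under IFN-γ at 364 ± 110.3 CPM, was not called (-0.35 ± 0.27, adjusted p = 0.592). Limma placed 3 of the list lower at an unadjusted p under 0.05, and edgeR called 1 and DESeq2 2 lower after adjustment.

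Among the genes that fell, Arrdc3, an arrestin relative, had the largest difference (-2.30 ± 0.13, adjusted p = 2.87e-09), followed by the cytokine gene Tnf and the chemokine gene Ccl4. Of 18 tested inflammatory cytokines and growth factors, 1 rose and 4 fell. The rise was that of Hbegf, a ligand of the EGF receptor, and was the largest difference of the list (2.51 ± 0.24, adjusted p = 1.1e-06), and the falls were those of Tnf, Pdgfb, Vegfa and Tnfsf15 (-1.04 ± 0.12, 0.129 without the block). Tnf, which encodes tumour necrosis factor (chromosome 17, 35199381 to 35202007), stood at 111, 26.8 and 61.6 CPM under IFN-γ and 19.7, 7.23 and 11.7 CPM with IL-4 added. Replicate 2 was lowest in both groups, and the groups did not overlap. The ratio of the means was 5.17 in favour of IFN-γ alone, and the difference -2.17 ± 0.31 (adjusted p = 9.13e-05, called in all 20 alternatives). Ccl4 fell from 145, 67 and 66.6 to 30.5, 20.9 and 10.9 CPM (-2.12 ± 0.38, adjusted p = 0.000935), with the call lost with replicate 3 removed from every group (0.058). Ccl3, a related chemokine (-1.93 ± 0.32), the growth factor Pdgfb (-1.83 ± 0.15) and Vegfa (-1.18 ± 0.17) fell with the block (adjusted p = 0.000484, 2.03e-07 and 9.33e-05) but not without it (0.136, 0.203 and 0.147, the highest of their 20 alternatives).

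Of 25 tested genes listed for classical activation, 10 fell and 0 rose, with a median difference of -0.63. Limma called 16 lower and 0 higher at an unadjusted p under 0.05, edgeR called 12 lower and 0 higher, DESeq2 11 and 0, and the fit without the block 2 and 0. Irg1, which makes itaconate, fell from 749.9, 337 and 435 to 242, 146 and 113 CPM (-1.59 ± 0.33, adjusted p = 0.00324), with the call lost without the replicate block (0.098) and with replicate 3 removed from every group (0.075) and 5.7e-07 to 0.098 over 20 alternatives. Nos2, the inducible nitric oxide synthase, was low at 2 h and fell from 4.03, 2.02 and 2.36 to 1.19, 0.544 and 0.87 CPM (-1.0 ± 0.21, adjusted p = 0.00407; 2.4e-07 to 0.17 over 20 alternatives, 0.0799 without the block). Irf8, a factor of the myeloid lineage and of the IFN-γ response, fell from 1000, 648 and 814 to 675, 381 and 531 CPM (-0.65 ± 0.09, adjusted p = 0.000117). It was lower in all 3 pairs although the groups overlapped, and without the block the adjusted p was 0.369, the highest of its 20 alternatives. Fcgr1, an Fc receptor that IFN-γ induces, fell as well (-0.70 ± 0.18, adjusted p = 0.0156, called in 13 of 20 alternatives). Il12b, under the filter, had 23 reads in the IFN-γ libraries and 3 with IL-4 added.

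Of 1046 genes raised at least 2-fold by IFN-γ at 4 h, 102 rose (9.75%, against 5.87% of all tested genes) and 121 fell (11.6%, against 4.5%). Which count was larger depended on the processing. EdgeR called 102 of them higher and 135 lower, and DESeq2 108 and 156. The fit without the block called 38 higher and 18 lower. In the CPM as deposited the counts were 80 and 63, and without replicate 3 in all groups 51 and 32. Several well-known members of the response were not called. Cxcl10 held 3284, 2615 and 2862 CPM under IFN-γ and 2142, 1786 and 1717 CPM with both, against 22.2 ± 9.76 CPM in untreated cells. Its groups did not overlap, and the difference of -0.63 ± 0.25 had an adjusted p of 0.141 (95% interval -1.17 to -0.10). Gbp2, a guanylate-binding protein, followed the same pattern (2598 ± 629.8 and 1453 ± 315 CPM; -0.83 ± 0.31, adjusted p = 0.115). Cxcl9, the related chemokine, had a difference of -0.61 ± 0.32 (adjusted p = 0.318). Irf1, an interferon regulatory factor that IFN-γ induces, was at 2332, 1317 and 1937 CPM and at 2121, 1421 and 1987 CPM, with a difference of 0.00 ± 0.11 (95% interval -0.22 to 0.23).

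The 18 guanylate-binding proteins and immunity-related GTPases all had differences under 0 (median -0.33), and 2 of them fell, Gbp4 (-0.82 ± 0.22) and Gbp2b (-0.62 ± 0.15), neither of which was called without the block (0.0787 and 0.209; 5 lower at an unadjusted p, 3 by edgeR, 2 by DESeq2, and 0 higher by each). Of 18 genes for MHC class I and antigen processing, limma, edgeR and DESeq2 called 0 in either direction, with 1 lower at an unadjusted p (median -0.09). Of 8 for MHC class II, Ciita, the master activator of that class, fell (-0.46 ± 0.11, adjusted p = 0.0128, 1 without the block). Of 32 genes classically induced by type I interferon, Rsad2, the antiviral protein viperin, fell (-1.13 ± 0.25, adjusted p = 0.0054, 0.962 without the block) and 0 rose. At an unadjusted p 3 of them were lower and 0 higher, as were 1 and 0 by edgeR and 2 and 0 by DESeq2.

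**Figure D2:**
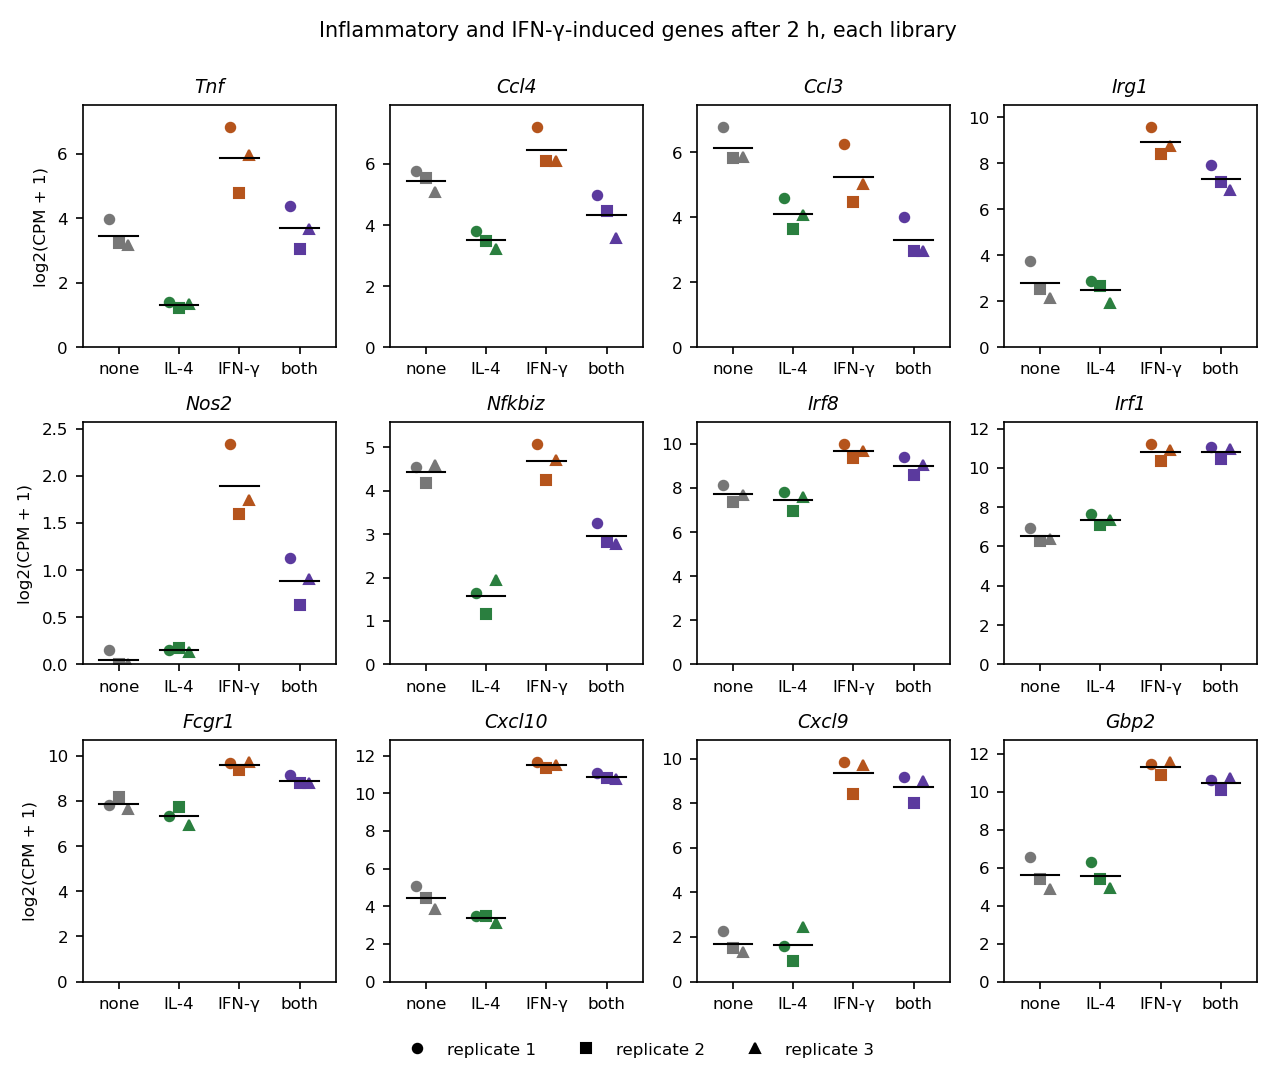
Levels of 12 inflammatory and IFN-γ-induced genes in untreated cells and after 2 h with IL-4, IFN-γ or both, on the log2(CPM + 1) scale; symbols are libraries, shapes replicates and bars the mean of 3. Tnf, Ccl4, Ccl3, Irg1, Nos2 and Nfkbiz are lower with both cytokines than with IFN-γ in all 3 pairs, and Irf1, Irf8 and Cxcl9 overlap between these 2 groups.

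NF-κB genes moved in both directions, 4 up and 5 down among 18. Rel, which encodes the subunit c-Rel, rose from 26.5, 15.3 and 15.8 to 102, 58.7 and 79.8 CPM (2.01 ± 0.15, adjusted p = 5.75e-08). Tnfaip3, the inhibitor A20 (1.16 ± 0.19, 0.652 without the block), Tnip3, an A20-binding inhibitor (1.14 ± 0.25, 0.129), and Ikbkg, the scaffold NEMO (0.38 ± 0.06), rose too. Nfkbiz, an atypical IκB protein that acts in the nucleus, fell from 32.4, 18.1 and 24.9 to 8.51, 6 and 5.87 CPM (-1.72 ± 0.26, adjusted p = 0.000174). The others that fell were Bcl3 (-0.84 ± 0.15), Nfkbid (-0.57 ± 0.16), Ikbke (-0.53 ± 0.11) and Tnip1 (-0.43 ± 0.11), none of them called without the block. The subunit genes Rela (-0.16 ± 0.12) and Nfkb1 (0.14 ± 0.11) were not called.

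Chemokines likewise divided, with 3 up and 3 down of 16. Besides Ccl24, Ccl7, which attracts monocytes, rose from 51.2, 153 and 28.9 to 310.4, 684 and 176 CPM (2.43 ± 0.25, adjusted p = 2.36e-06, 0.186 without the block), with replicate 2 the highest in both groups. Ccl8 was the other that rose (1.25 ± 0.25, 0.348 without the block). Cxcl11, a ligand of the same receptor as Cxcl10, fell with Ccl3 and Ccl4 (-0.89 ± 0.27, adjusted p = 0.0437, 0.195 without the block). Of 16 chemoattractant receptors 2 rose and 5 fell. Gpr183, a receptor for oxysterols, rose from 2.61, 5.96 and 3.13 to 21.1, 28.5 and 16.7 CPM (2.27 ± 0.22, adjusted p = 1.44e-06), and Ltb4r1, a leukotriene receptor, by 0.78 ± 0.16 (0.298 without the block). Among those that fell, Cxcr4 (-0.97 ± 0.20), Ccrl2 (-1.13 ± 0.29), Ccr2 (-0.72 ± 0.18) and C3ar1 (-0.28 ± 0.07) were not called without the block.

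Pattern receptors also changed in opposite directions, 3 up and 6 down of 30. Tlr4, the receptor for lipopolysaccharide, rose from 192, 246 and 205 to 362, 426 and 345 CPM (0.82 ± 0.10, adjusted p = 1.6e-05), with no overlap. Tlr2, the receptor for bacterial lipopeptides, fell from 239.6, 60.7 and 169.8 to 86.5, 35.4 and 56.3 CPM (-1.26 ± 0.21, adjusted p = 0.000537). Replicate 2 was low in both groups, so that the levels overlapped, and without the block the adjusted p was 0.746 (5.5e-08 to 0.75 over 20 alternatives). Nlrp3, the inflammasome sensor, fell as well (-1.09 ± 0.28, adjusted p = 0.0153, called in 13 of 20 alternatives).

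Regulators of MAP kinase signalling gave 4 rises and 4 falls among 14. Dusp4, a nuclear MAP kinase phosphatase, rose from 4.3, 3.19 and 2.46 to 35.6, 28.1 and 25.3 CPM (2.84 ± 0.13, adjusted p = 2e-10), and Dusp7 by 1.09 ± 0.20. Dusp10, which acts on JNK and p38 (-0.96 ± 0.16), and Spry2, an inhibitor of receptor signalling (-0.86 ± 0.10), fell. Of 20 AP-1, ATF and C/EBP factors 6 rose and 2 fell. Cebpa, the lineage factor C/EBPα, went from 26.8, 10 and 25.1 to 70, 38.3 and 74.1 CPM (1.57 ± 0.22, adjusted p = 8.94e-05, 0.0826 without the block). Atf3, a stress-induced repressor, went from 331, 198 and 214 to 609.7, 444 and 457 CPM (1.04 ± 0.15, adjusted p = 0.000131, 0.239 without the block). Jun (-0.43 ± 0.20) and Junb (-0.43 ± 0.27) were not called. Other large changes outside these lists were rises of Cpeb2, which regulates translation (3.08 ± 0.20), and P2ry1, a receptor for ADP (2.65 ± 0.12), and falls of Lpar6, a receptor for lysophosphatidic acid (-2.02 ± 0.21), Ptafr, the receptor for platelet-activating factor (-1.72 ± 0.14, 0.118 without the block), and Kcnj2, a potassium channel (-1.78 ± 0.26).

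**Figure D3:**
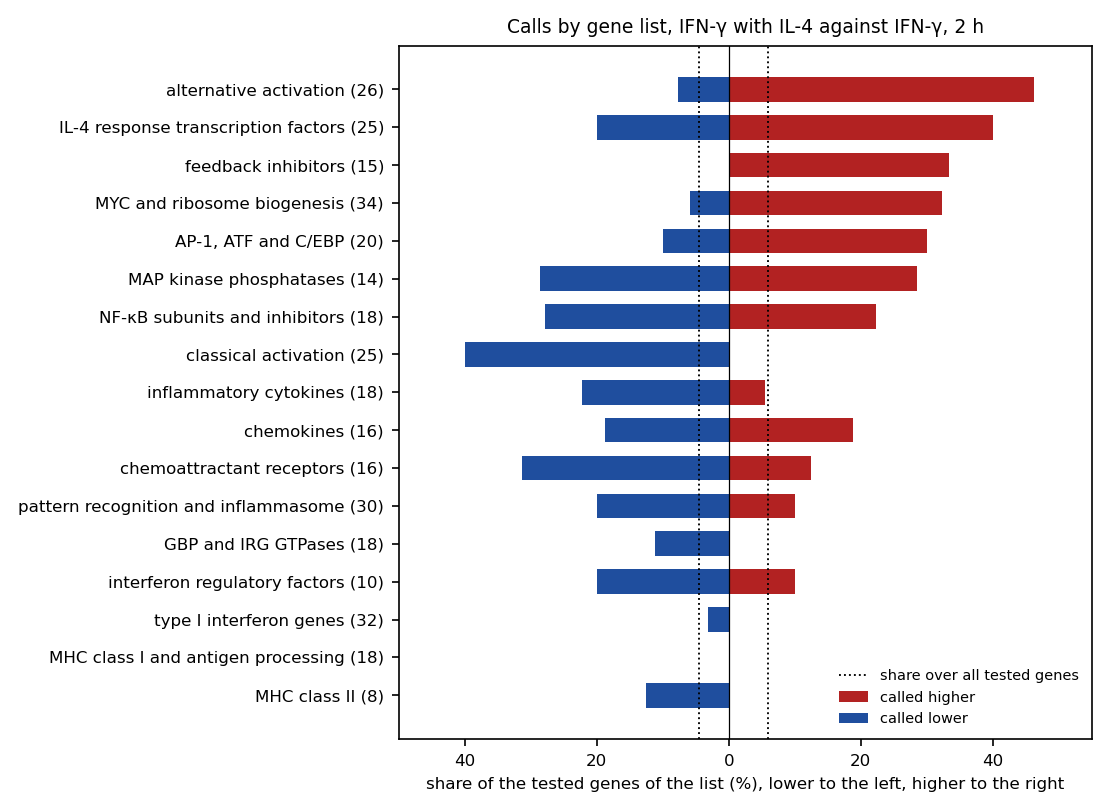
Share of the tested genes of 17 lists (number in brackets) called higher (right, red) or lower (left, blue) with IL-4 added to IFN-γ at 2 h. The dotted lines mark the shares over all tested genes, 5.87% higher and 4.5% lower. Classical activation and the GTPases have falls and no rises, and the feedback inhibitors rises and no falls. Type I interferon genes and MHC class II have no rises and 1 fall each, of 32 genes (3.1%, under the dotted line) and of 8 genes. Alternative activation has the highest share of rises of the lists drawn.

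The same cytokine was also given without IFN-γ, in cells that were otherwise untreated. No library is shared between this comparison and that of IL-4 with untreated cells at 2 h, in which 25.5% of tested genes were called (14% higher, 11.5% lower). Untreated replicates 2 and 3 carried 43.2% and 15.7% of reads from ribosomal RNA, a limit on all calls made against untreated cells. Across the 11380 genes both differences correlated at a Pearson r of 0.716 (Spearman 0.635), a description over genes, which are not independent. Of the 668 genes that rose on top of IFN-γ, 569 were also higher with IL-4 alone, which is 85.2% of them and 35.8% of the 1588 higher with IL-4 alone. Of the 512 that fell, 360 were also lower with IL-4 alone (70.3% of them, 27.4% of 1313). Of 288 genes called with a log2 difference of at least 1 under IL-4 alone, 225 rose here and 0 fell. At an unadjusted p limma placed 246 higher and 0 lower, edgeR called 231 and 0, DESeq2 235 and 0, and the fit without the block 141 and 0. Their median difference was 1.46 with IL-4 alone and 0.88 on top of IFN-γ, but the first value is raised by the selection on it.

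IFN-γ responses at 4 h gave a division of these genes that shares no library with the comparison at 2 h. There IFN-γ, set against the same untreated libraries, called 63.3% of tested genes (32.5% higher, 30.8% lower). Of the 97 genes induced at least 2-fold by both single cytokines 57 rose when IL-4 was added to IFN-γ, and of the 191 that reached 2-fold with IL-4 alone but not with IFN-γ 168 rose. Of 949 genes that reached 2-fold with IFN-γ but not with IL-4 alone, 45 rose and 121 fell (4.74% and 12.8%). Over all tested genes these shares were 5.87% and 4.5%. Of the 949, 136 were called higher with IL-4 alone, under the 2-fold limit. Of the 23 genes that IFN-γ induced and IL-4 alone lowered, both by at least 2-fold, 12 fell and 0 rose, and of the 16 that IL-4 induced and IFN-γ lowered by as much, 13 rose and 0 fell. Without the block, the rises were 26 of the 97, 115 of the 191 and 10 of the 16, and the falls 5 of the 23. Of the 949, that fit called 12 higher and 18 lower. Shares of these groups were not tested against each other.

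The difference between both IL-4 effects was tested as an interaction, the effect of IL-4 with IFN-γ minus its effect without. It was called for 342 genes (3.01%), 125 higher and 217 lower (1.1% and 1.91%). Untreated cells enter this contrast, and 2 of their 3 libraries carried 43.2% and 15.7% of reads from ribosomal RNA (replicates 2 and 3). In the CPM as deposited the median over all genes moved to -0.39, and the calls became 32 higher and 294 lower. Without untreated replicate 2 the number was again 342, with 286 genes in common, and the number was 190 when untreated replicate 1 served as the only control, assumed to vary like the other groups. Leaving out replicate 3 in all groups left 47 calls and replicate 1 left 114, and the fit without the block gave 42. Among 279 genes raised at least 2-fold by added IL-4 at 4 h, which shares no library with this contrast, 49 were lower and 17 higher in the interaction.

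Several of the most reduced IL-4 effects belonged to genes that IFN-γ itself had raised. Socs1 went from 1.3, 0.838 and 0.51 CPM in untreated cells to 120.0, 75.1 and 64.8 CPM with IL-4 alone, a difference of 5.51 ± 0.19, against 0.63 ± 0.19 on top of IFN-γ. The interaction was -4.89 ± 0.27 (adjusted p = 2.15e-08). Cish (-3.42 ± 0.29, adjusted p = 2.78e-06) and Socs2 (-2.46 ± 0.19, adjusted p = 1.08e-06) gave the same picture, as did Rasgrp1 (-3.21 ± 0.41). For Ch25h, which makes an oxysterol, IL-4 alone gave 3.01 ± 0.29 and IL-4 with IFN-γ -0.48 ± 0.29 (-3.49 ± 0.41, adjusted p = 7.49e-05). Ccl2 (-3.00 ± 0.52, adjusted p = 0.00295), Ccl7 (-2.53 ± 0.35), Il4ra (-1.92 ± 0.25, adjusted p = 0.000194) and Cd274, the PD-1 ligand PD-L1 (-1.80 ± 0.31, adjusted p = 0.00249), had the same sign. All of these had been higher with IFN-γ alone than in untreated cells, by 5.69 for Socs1, 4.21 for Cish, 5.16 for Ch25h and 2.92 for Il4ra, though those differences share the IFN-γ and untreated libraries with the interaction.

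For other genes the interaction was higher, which can be a greater rise or a smaller fall with IFN-γ: 47 of the 154 genes lowered at least 2-fold by IL-4 alone were among the 125, a set chosen on libraries that the interaction shares. Sik1, a salt-inducible kinase, went from 6.79, 3.19 and 3.65 to 14.3, 11.2 and 13.6 CPM on top of IFN-γ (1.39 ± 0.19), whereas without IFN-γ it stood at 27.6, 10.4 and 17.8 CPM in untreated cells and 11.3, 7.74 and 7.55 CPM with IL-4 (-0.91 ± 0.19). The interaction was 2.30 ± 0.26 (adjusted p = 6.04e-05). Cpeb2 (2.1 ± 0.29, adjusted p = 0.000352), Atf3 (1.58 ± 0.22, adjusted p = 0.000341), Cebpa (1.69 ± 0.31, adjusted p = 0.00461) and Ccl24 (1.42 ± 0.27, adjusted p = 0.0062) shared this sign. Lhfpl2 (1.84 ± 0.36) and Thbs1, thrombospondin (1.67 ± 0.23), were lower with IL-4 alone (-2.20 and -2.38), and on top of IFN-γ their differences were -0.36 ± 0.25 and -0.71 ± 0.16, the first not called and the second lost without the block (0.559). Pdcd1lg2 (0.30 ± 0.30, adjusted p = 0.769), Myc (0.10 ± 0.18, 0.881) and Tnf (-0.03 ± 0.43, 0.989) had no called interaction; the 95% intervals were -0.33 to 0.93, -0.28 to 0.48 and -0.95 to 0.88.

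**Figure D4:**
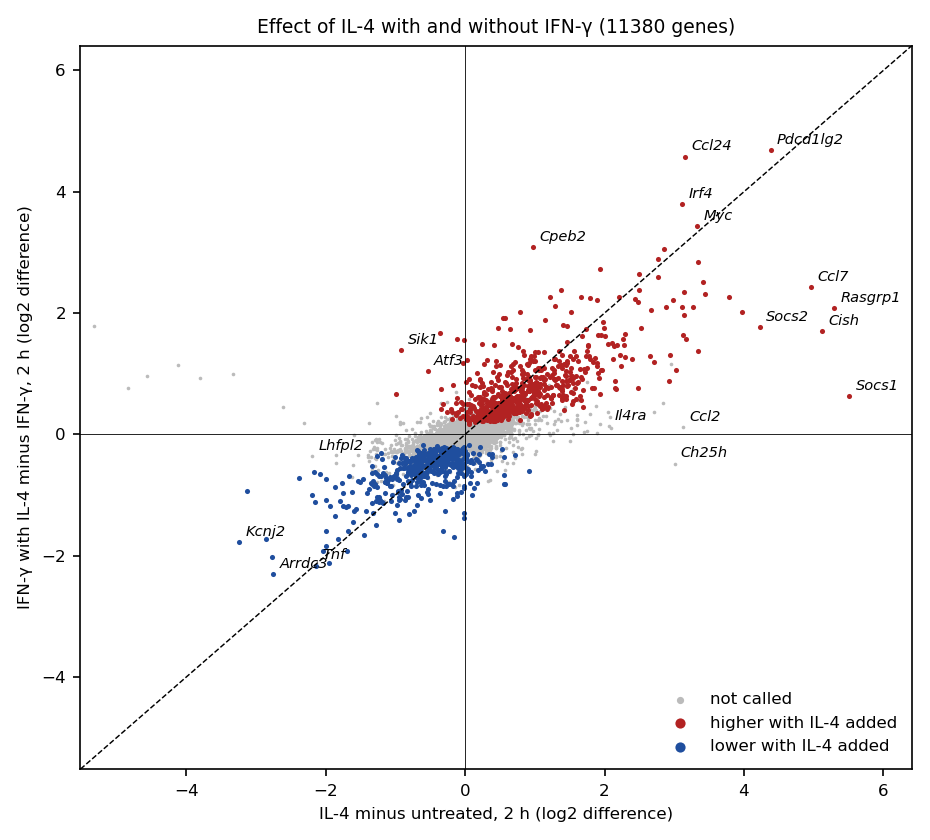
Log2 difference of IL-4 against untreated cells (x axis) and of IFN-γ with IL-4 against IFN-γ (y axis), both at 2 h, for 11380 genes, each point 1 gene; red and blue mark genes called in the second comparison and the dashed line equal effects. Pdcd1lg2, Myc and Tnf lie near the line, Socs1, Cish, Ccl2 and Ch25h well under it, and the grey points at the far left are ribosomal RNA, other noncoding RNA and Lars2, whose levels differ among untreated libraries.

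After 4 h the effect of added IL-4 had widened. IL-4 added to IFN-γ called 32.6% of tested genes at 4 h (13.8% higher, 18.8% lower). These groups share no library with those at 2 h, and both differences correlated at 0.751 across genes (Spearman 0.585). Of the 668 genes that rose at 2 h 553 were higher at 4 h (82.8% of them, 35.1% of the 1575 higher at 4 h), and of the 512 that fell 397 were lower (77.5%, and 18.6% of 2135). The change of the effect with time was called for 823 genes (7.23%), 320 with a higher and 503 with a lower value at 4 h (2.81% and 4.42%). It was called for 41 without the block, for 142 and 42 after removal of replicate 1 or of replicate 3 from every group, and for 203 in the CPM as deposited.

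Inflammatory genes were among those lowered further at 4 h. Nos2 reached 152, 51.2 and 95.3 CPM with IFN-γ at 4 h and 6.76, 4.97 and 3.68 CPM with both cytokines. The effect of IL-4 was thus -3.93 ± 0.21 at 4 h against -1.0 ± 0.21 at 2 h (change -2.92 ± 0.30, adjusted p = 2.9e-05). Tnf (-2.05 ± 0.43, adjusted p = 0.0074) and Nfkbiz (-2.16 ± 0.37, adjusted p = 0.00178) had already fallen at 2 h. Ccl5, a T-cell-attracting chemokine, differed by -0.31 ± 0.32 at 2 h (adjusted p = 0.737) and by -3.56 ± 0.32 at 4 h (change -3.24 ± 0.45, adjusted p = 0.000355). Cxcl2 (-2.64 ± 0.48), Clec4e (-2.70 ± 0.43), Marcksl1 (-2.69 ± 0.31) and Rasgef1b (-2.73 ± 0.40) likewise were not called at 2 h.

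For some genes the rise with added IL-4 was greater at 4 h. Arg1 stood at 0.055, 0.193 and 0.0541 CPM with IFN-γ and 10.2, 38.7 and 8.28 CPM with both cytokines at 4 h, a difference of 3.87 ± 0.40 (change 2.70 ± 0.57, adjusted p = 0.00716). Ccl24 (2.06 ± 0.27, adjusted p = 0.00022), Tmem26 (2.11 ± 0.19, adjusted p = 7.51e-06), Osbpl3, an oxysterol-binding protein (1.93 ± 0.17), Apol7c (2.88 ± 0.47) and Prr15 (2.25 ± 0.23) also had a higher value at 4 h. Pdcd1lg2 (0.97 ± 0.30, adjusted p = 0.0614) and Myc (-0.04 ± 0.18, adjusted p = 0.933) had no called change. Arrdc3 and Lpar6 ran the other way, from -2.30 ± 0.13 and -2.02 ± 0.21 at 2 h to -0.70 ± 0.13 and -0.80 ± 0.21 at 4 h (changes 1.59 ± 0.19 and 1.22 ± 0.29, adjusted p = 7.61e-05 and 0.0166).

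**Figure D5:**
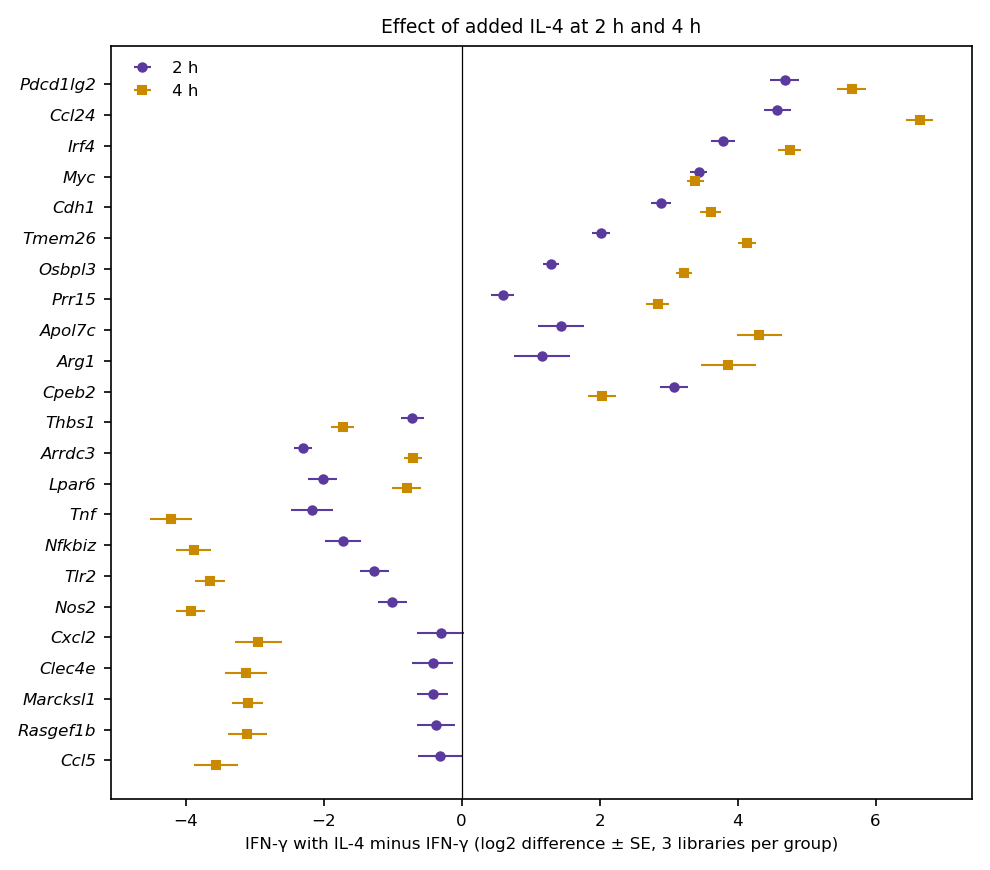
Effect of adding IL-4 to IFN-γ at 2 h (circles) and 4 h (squares) for 23 named genes, as log2 difference with its standard error, 3 libraries per group. Ccl24, Tmem26 and Arg1 move further to the right at 4 h, Tnf, Nos2 and Ccl5 further to the left, and Myc stays at the same place.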

How the data were processed

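Poly(A) RNA of 21 libraries was analysed, 7 groups of 3. The other 24 samples of the series, from cells with short hairpin RNAs, are not used here. The authors deposited CPM per gene. Per the submitters' processing notes, TopHat2 2.1.0, HTSeq and edgeR were used on mm10 (GRCm38); other settings are not given in the sources used here. Taking the smallest value above 0 of each library as 1 read, 100% of values were whole reads within 0.01, so depth is known (28920801 to 80028327 reads); precision at low levels is limited by read number. Coordinates come from GENCODE vM21 and promoters from RefSeq (GRCm38.p6).

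CPM were rescaled by median ratios over 13025 genes. Log2(CPM + 1) of genes with at least 1 CPM in 3 libraries was fitted in limma 3.58.1 (R 4.3.3; trend; 7 group means and the replicate number as a block, 12 residual degrees of freedom), with Benjamini-Hochberg adjustment over 11380 genes in each contrast and calls at 0.05. Contrasts were combination minus IFN-γ at 2 h, its difference from IL-4 minus untreated, and its change at 4 h. edgeR 4.0.16 (quasi-likelihood) and DESeq2 1.42.0 on recovered reads, other scalings, pseudocounts of 0.25 and 4 CPM, filters, left-out libraries and the fit without the block were alternatives. Same-numbered libraries correlated at 0.539 to 0.951 in all 63 pairs over groups, so the numbers pair the libraries. The limma, edgeR and DESeq2 scripts were tested on simulated counts.

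Gene lists, members and the naming rule were chosen with earlier results of these data known. Named were the 12 largest non-overlapping calls in each direction with at least 5 CPM, up to 4 called and 2 uncalled genes of each list, a set of genes fixed by name, and the 6 largest calls each way of both difference tests. Others were named after their values were seen, to complete counts of 5 or fewer or as further list members: Flt1, Fn1, Il1rn, Plaur, Gata3, Klf2, Bhlhe41, Bcl6, Ppard, Ppan, Gnl3, Ptpn2, Ikbkg, Bcl3, Nfkbid, Ikbke, Tnip1, Tnfsf15, Ccl8, Cxcl11, Ccr2, C3ar1, Bcl2l1, Mcl1, Nr1d2 and Nr3c1. Some genes that the rule names are not reported here.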

Additional observations from a re-analysis of the deposited data

Results flagged for a closer look

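The effect of IL-4 differed with and without IFN-γ for 342 genes at 2 h, and the effect of added IL-4 differed between 2 h and 4 h for 823 genes, by a test of the difference itself (limma). Both counts depended on replicates 1 and 3 and on the replicate block, as given with the results. Values are log2 differences between 2 effects, each called at an adjusted p under 0.05.

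With IFN-γ the effect of IL-4 at 2 h was lower, in order of size, for Socs1 (-4.89), Ch25h (-3.49), Cish (-3.42), Rasgrp1 (-3.21), Ccl2 (-3.00), Ccl7 (-2.53), Socs2 (-2.46), Klf4 (-2.33), Tmem26 (-1.95), Il4ra (-1.92), Cd274 (-1.80), Ifitm1 (-1.54), Retnla (-1.25) and Irf1 (-0.83). It was higher for Ccl24 (1.42), Kcnj2 (1.46), Thbs1 (1.67), Cebpa (1.69), Lhfpl2 (1.84), Melk (2.03), Cpeb2 (2.1) and Sik1 (2.30). Of these, Il4ra, Cd274, Klf4, Irf1, Retnla, Ch25h, Ccl2 and Lhfpl2 were not called on top of IFN-γ.

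From 2 h to 4 h the effect of added IL-4 became more negative or less positive for Ccl5 (-3.24), Nos2 (-2.92), Rasgef1b (-2.73), Clec4e (-2.70), Marcksl1 (-2.69), Cxcl2 (-2.64), Nfkbiz (-2.16), Tnf (-2.05), Cpeb2 (-1.05) and Thbs1 (-1.01). It became more positive or less negative for Cdh1 (0.71), Retnla (0.93), Irf4 (0.96), Socs2 (0.98), Cebpa (1.19), Lpar6 (1.22), Arrdc3 (1.59), Osbpl3 (1.93), Ccl24 (2.06), Tmem26 (2.11), Prr15 (2.25), Arg1 (2.70) and Apol7c (2.88). Arg1, Retnla, Ccl5, Cxcl2, Clec4e, Marcksl1 and Rasgef1b were not called at 2 h.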

How the results depend on the processing

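The count of genes called in the comparison (1180) stayed within 1.5 times under TMM scaling, other pseudocounts and filters, edgeR, DESeq2, without the untreated libraries and without any single library of the comparison (825 to 1110). The exceptions follow, and where no construction shows it the cause was not tested. With no replicate block the pairing was ignored and the counts were 342 (253 higher, 89 lower), 42 for the interaction and 41 for the change with time. In the CPM as deposited they were 538 (366 higher, 172 lower), with 68.0% of calls higher against 56.6% after rescaling, and 203 for time. The 6 libraries of the comparison alone, with the replicate block, gave 1904, of which 990 lower. Untreated replicate 1 alone as control, an alternative added after seeing the data together with the removal of untreated replicate 2, gave 190 for the interaction. Leaving out libraries or replicates gave 419 to 1476 genes called, 298 to 809 higher, 121 to 667 lower, 47 to 487 for the interaction and 42 to 1422 for time. The lowest of these came without replicate 3 in all groups and the highest without replicate 2; replicate 1 left 649 (418 higher, 231 lower), 114 and 142. Lower calls were 323 and 311 without IFN-γ replicate 1 or 3, and without IFN-γ replicate 3 the interaction had 198 and time 523. Of 102 named genes called, 57 lost the call without the block, 43 without replicate 3, 23 without replicate 1, 19 as deposited, 4 with DESeq2 and 1 with edgeR; none of the 186 named genes tested had a called value change sign. In 41 of those 57 the fit without the block had the highest adjusted p of the alternatives run. The 12 largest rises named by the rule kept their call under every alternative run. The 6-library fit could not be run for the interaction or for time, which need other groups.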

Other observations

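Of 23 tested regulators of cell death, 2 rose and 5 fell (8.7% and 21.7%, against 5.87% and 4.5% of all tested genes). The fit without the block called 0 of them in either direction. Bcl2, which protects mitochondria, rose from 4.23, 7.94 and 3.45 to 9.91, 17.2 and 11.8 CPM (1.20 ± 0.11, adjusted p = 1.17e-06, 0.139 without the block, the highest of 20 alternatives). Of the 5 that fell, Bbc3, Pmaip1 and Bid promote cell death (-1.0 ± 0.23, -0.80 ± 0.19 and -0.60 ± 0.09), and Bcl2l1 and Mcl1 oppose it (-0.52 ± 0.12 and -0.40 ± 0.09). None of these 5 was called without the block. Bcl2l11, which promotes cell death, was not called (0.02 ± 0.18).

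Lists for nuclear receptors, glycolysis and cholesterol held calls in both directions, that for prostaglandins only rises and that for iron only falls. Over all tested genes 5.87% rose and 4.5% fell. The shares were 4.76% and 9.52% for glycolysis and 4.76% and 14.3% for cholesterol, so that their rises were under the share over all genes. Ptgir, the prostacyclin receptor, rose from 2.06, 3.51 and 2.38 to 11, 12 and 10.5 CPM (1.75 ± 0.13, adjusted p = 5.58e-08), and Ptgs1, the constitutive cyclooxygenase, by 0.61 ± 0.08 (1 without the block), the 2 rises among 14 genes of prostaglandin synthesis and reception. Of 17 nuclear receptors with Ahr, 3 rose and 4 fell: Rara, a retinoic acid receptor, rose with Ahr and Pparg (0.85 ± 0.12, 0.0537 without the block), and Rarg (-0.76 ± 0.11), Ppard, Nr3c1, the glucocorticoid receptor (-0.33 ± 0.07), and Nr1d2 (-0.31 ± 0.09) fell, none of the 4 called without the block. Pfkfb3, which makes an activator of glycolysis, fell from 89.9, 26.1 and 65.6 to 18.9, 11.1 and 20.5 CPM (-1.66 ± 0.19, adjusted p = 1.24e-05), Hk1, a hexokinase, fell too (-0.47 ± 0.10), and Slc2a1, a glucose carrier, rose by 0.51 ± 0.14, both lost without the block; the other 18 of 21 glycolysis genes were not called. Iron genes had 3 falls of 14: Slc40a1, the iron exporter ferroportin (-0.98 ± 0.27), Steap4, a metalloreductase (-1.38 ± 0.33), and Slc39a14, a metal importer (-0.36 ± 0.09), none of them called without the block. Among cholesterol genes the exporters Abca1 (-0.77 ± 0.19) and Abcg1 (-0.34 ± 0.08) and Mylip, which degrades the LDL receptor (-0.86 ± 0.17), fell and Insig2 rose (0.35 ± 0.08), of 21 tested, again without a call in the fit without the block.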
